A study of Rattus norvegicus with 12 samples.

Results

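The expression of 10 genes of the TGF-beta, activin and BMP pathways was followed in rat hippocampal neurons after oxygen and glucose deprivation (OGD), an in vitro model of the loss of blood supply to the brain. The genes were chosen by name: the ligands Tgfb1, Tgfb2, Tgfb3, Inhba, Bmp2, Bmp4 and Bmp7, the activin antagonist Fst, the receptor Tgfbr2 and the inhibitory SMAD Smad7. They are 10 of the 15154 gene symbols that could be assigned to the arrays, and 12 of the 30367 probes target them, since Tgfb2 and Tgfbr2 have 2 probes each and the other genes 1. Where a gene had 2 probes, the probe with the higher mean signal was used and the other served as a check. Total RNA was measured on 12 single-color Agilent arrays, 3 in each of 4 groups. All groups were primary hippocampal cultures from Wistar rat embryos, labelled E18 (the methods of the study give a range of E18-E19), maintained for about 2 weeks in Neurobasal medium, and the study describes a minor glial component in them. The OGD cultures spent 2 h in an anaerobic chamber in a buffer that held sucrose in place of glucose, and were then returned to conditioned medium for 7 h or 24 h. The control cultures were kept for the same periods in the same kind of buffer with glucose, in air and CO2, with 1 control group for each recovery time. The arrays of a group are 3 independent cultures, and each array reports the whole RNA of a culture, so that a change in the number of cells of a type and a change in RNA per cell cannot be told apart.

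The ligands of this family are secreted dimers that bind pairs of type I and type II serine/threonine kinase receptors on the cell surface. TGF-beta ligands and activins signal mainly through SMAD2 and SMAD3 and BMPs through SMAD1, SMAD5 and SMAD9, and these proteins move with SMAD4 to the nucleus, where they change transcription. Antagonists such as follistatin and noggin hold the ligands outside the cell, and SMAD6 and SMAD7 close a feedback loop inside it. In the brain, TGF-beta is known for its part in the response of glia and neurons to injury, activin A as an activity-regulated neuroprotective factor, and BMPs for the control of neuronal and glial fate.

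Each value below is a relative log2 signal, the log2 of the background-corrected fluorescence of a probe minus the median of all non-control probes on that array. A relative log2 signal of 0 is therefore the median probe of an array, and the levels of different genes cannot be compared, because probes differ in brightness. A gene was called higher or lower when its unadjusted limma p was under 0.05 and its fold at least 2, which are the thresholds of the study. The methods' t-test, which takes the spread of each gene from its own arrays alone, was run beside limma. None of the 30367 probes passed an adjusted p of 0.05 at 7 h (0%) or at 24 h (0%) in limma, and the smallest values reached were 0.117 and 0.209. By an unadjusted p under 0.05 alone, 1455 probes (4.79%) were higher after 7 h and 2135 (7.03%) lower, and 2280 (7.51%) were higher after 24 h and 1880 (6.19%) lower. With the fold of the study added, the 7 h cultures had 631 probes (2.08%) called higher against 505 (1.66%) called lower, and the 24 h cultures 1126 (3.71%) against 595 (1.96%). Centring on the 75th percentile changed the 7 h counts to 708 and 349. These shares are the background for the counts of pathway genes.

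The arrays came on 6 slides that each carried a control and an OGD array with the same recovery time and replicate number, so every comparison could also be made within slides. At 7 h every control array was at position 1 of its slide and every OGD array at position 2, and at 24 h the positions were 3 and 4, so position cannot be told apart from condition or from recovery time. In 3 of the slides the OGD array was scanned 211 or 177 min before its control, and the other pairs were scanned together. Slides of the 7 h and 24 h cultures were scanned on different days, so the recovery time and the day of the scan cannot be told apart. The median intensity was 130.6 to 660.3 units and 78.3% to 87.1% of the spots were well above background. OGD array 1 at 24 h had the lowest median intensity, and its mean correlation with the other arrays of its group was 0.9625, against 0.973 to 0.9908 on the remaining arrays. The changes of the members at 24 h and the counts of members, target genes and markers called are therefore also given without it. In the cultures, all 12 neuronal markers on the list were well above background on all 12 arrays, as were the 9 astrocyte markers with a probe.

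At 7 h of recovery, 3 of the 10 genes were called higher after OGD (Bmp2, Fst and Tgfb1) and none lower. At 24 h, 2 were called higher (Bmp2 and Tgfb1) and 1 lower (Inhba). Of all probes, 2.08% and 3.71% were called higher at these times and 1.66% and 1.96% lower. Without OGD array 1, the 24 h counts were 1 higher and 1 lower. Scaling to a spike-in probe, which moved the median of all probes by -0.81 at 7 h and -1.02 at 24 h, left no member called higher and Inhba called lower. With normexp background correction Tgfb1 was called at neither time (0.96 and 0.74) and Bmp2 not at 24 h (0.85), so that 2 members were called higher at 7 h and 0 at 24 h. The median log2 fold change of the 10 genes was 0.48 at 7 h and 0.34 at 24 h, and over all probes it was -0.06 and 0.01. None of the 10 genes reached an adjusted p of 0.05. Tgfb1, Fst and Bmp2 are among the genes that the study listed from these same arrays at 7 h, so their calls at that time are not independent evidence. All 3 OGD arrays lay above all 3 control arrays for 3 of the 10 genes at 7 h and for 2 at 24 h, and for 10.6% and 10.9% of all probes.

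**Figure D1:**
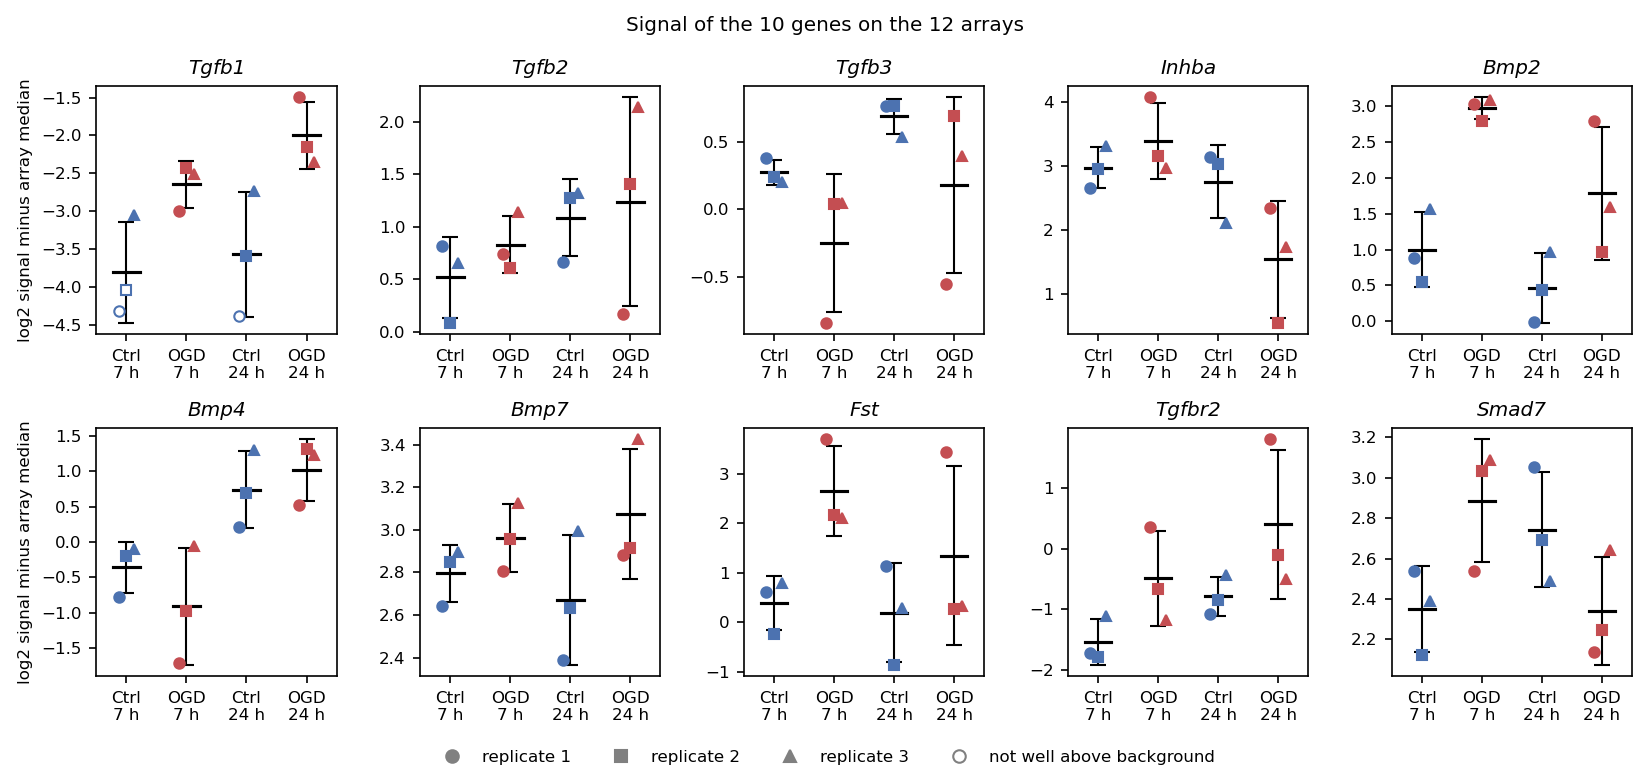
Relative log2 signal (log2 units relative to the array median) of the 10 genes on each array, with the control groups in blue and the OGD groups in red, 3 arrays per group, and the mean and SD of each group in black. Marker shape gives the replicate number and open markers are spots not well above background, and each panel has its own scale. All 3 OGD arrays lie above all 3 control arrays for Bmp2 and Tgfb1 at both times and for Fst at 7 h.

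**Figure D2:**
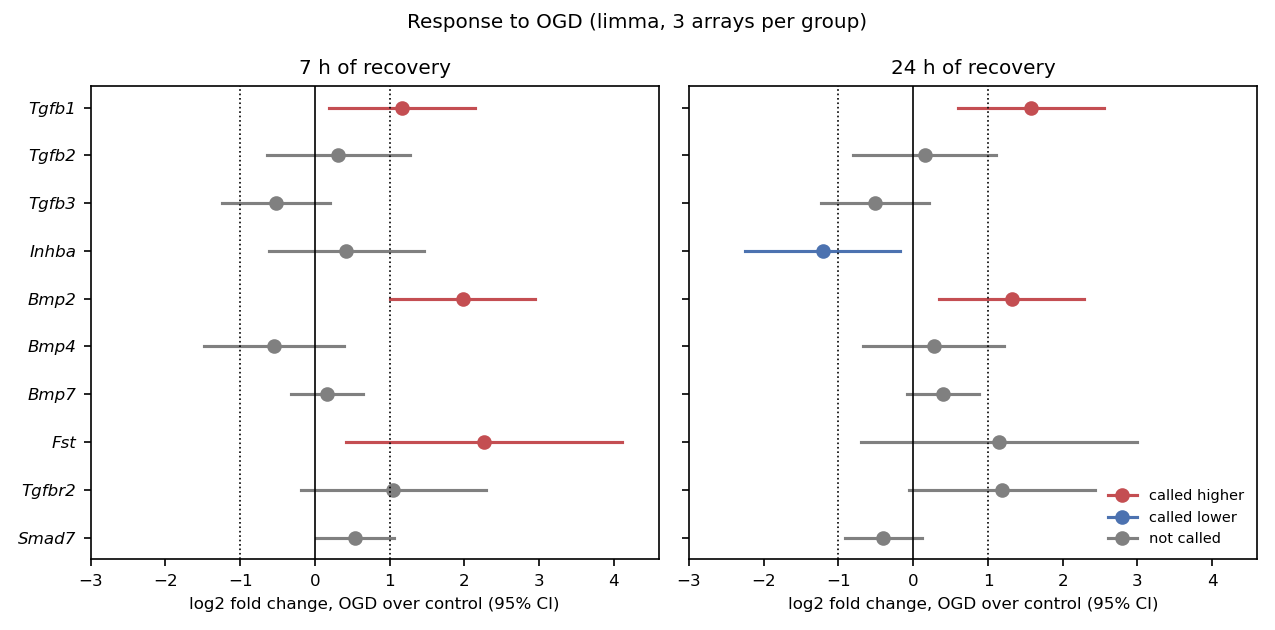
Log2 fold change of OGD over control with its 95% confidence interval from limma at 7 h (left) and 24 h (right), 3 arrays per group, with dotted lines at a change of 2-fold either way. At 7 h the interval of Bmp2 alone lies wholly above 1, and Inhba was the member called lower at 24 h.

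Among the BMP ligands, Bmp2 showed the lowest p of the 10 genes at 7 h. Bmp2, a BMP that signals to SMAD1 and SMAD5 and is best known for bone formation, had relative log2 signals of 0.88, 0.55 and 1.57 in control arrays 1, 2 and 3 at 7 h, and of 3.04, 2.80 and 3.08 in the OGD arrays. Every OGD array was above every control array, and the OGD arrays lay close together. In log2 terms OGD over control was 1.98 ± 0.44 (SE, n = 3 per group, limma adjusted p = 0.212), or 3.94-fold. On the slides of replicates 1, 2 and 3 the OGD minus control difference was 2.16, 2.25 and 1.52.

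At 24 h, Bmp2 read -0.01, 0.44 and 0.97 in the control arrays and 2.79, 0.97 and 1.59 in the OGD arrays. The lowest OGD array and the highest control array had the same value at this precision, and the high level of OGD array 1 set much of the mean. The log2 fold change was 1.32 ± 0.44 (limma adjusted p = 0.290), or 2.50-fold. Within slides the differences were 2.80, 0.54 and 0.62. The call was lost without OGD array 1 (0.82, under the fold of the study) and without control array 1 (1.08), and the methods' t-test did not make it. The responses at the 2 times differed by -0.66 ± 0.62 (24 h minus 7 h, limma adjusted p = 1), and by -1.16, with an unadjusted p under 0.05, without OGD array 1. The share of all probes that passed in that fit is not given here, and with all arrays it was 3.58%.

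Bmp4 and Bmp7 were not called at either time. Bmp4, a close relative of Bmp2 with a role in the formation of astrocytes, had signals of -0.78, -0.20 and -0.10 in the control arrays at 7 h and of -1.70, -0.97 and -0.05 in the OGD arrays. The groups overlapped, with a log2 fold change of -0.55 (95% CI -1.49 to 0.39, limma adjusted p = 0.627). At 24 h the signals were 0.22, 0.70 and 1.30 against 0.52, 1.31 and 1.22, again overlapping, with a log2 fold change of 0.28 (95% CI -0.67 to 1.22), or of 0.52 without OGD array 1.

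Bmp7, a BMP with trophic effects on dendrites, read 2.64, 2.85 and 2.90 in the control arrays at 7 h and 2.81, 2.96 and 3.12 in the OGD arrays. At 24 h it read 2.39, 2.63 and 3.0 against 2.88, 2.91 and 3.42. The groups overlapped at both times, although the OGD array was the higher of its slide on all 6 slides. In log2 terms OGD over control was 0.16 at 7 h (95% CI -0.32 to 0.65) and 0.40 at 24 h (95% CI -0.08 to 0.88), and 0.50 there without OGD array 1. With all arrays, both intervals exclude a change of 2-fold in either direction, and Bmp7 had the narrowest intervals of the 10 genes.

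Of the TGF-beta ligands, Tgfb1 was called higher and the other 2 were not. Tgfb1, the family member most tied to injury responses and to microglia and macrophages, was dim: its spots were well above background on 1 of 3 control arrays at 7 h, on 2 of 3 at 24 h and on every OGD array. Its signals at 7 h were -4.32, -4.05 and -3.05 in the control arrays and -3.0, -2.43 and -2.51 in the OGD arrays. The groups did not overlap, by a narrow margin. The log2 fold change was 1.16 ± 0.44 (limma adjusted p = 0.353), or 2.24-fold, and the slides gave 1.32, 1.62 and 0.54. The call was lost without control array 1 (0.90), control array 2 (1.04), OGD array 2 (1.05) or OGD array 3 (1.09), and the methods' t-test did not make it.

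At 24 h, Tgfb1 read -4.38, -3.59 and -2.74 in the control arrays and -1.50, -2.16 and -2.35 in the OGD arrays. All OGD arrays were above all control arrays, and OGD array 1 was the highest. In log2 terms OGD over control was 1.57 ± 0.44 (limma adjusted p = 0.269), or 2.97-fold, and within slides it was 2.89, 1.43 and 0.39. Without OGD array 1 it was 1.32 and still called. The responses at 7 h and 24 h differed by 0.41 ± 0.63 (95% CI -0.97 to 1.80, adjusted p = 1).

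Tgfb2, which neurons and glia both make, read 0.82, 0.09 and 0.66 in the control arrays and 0.75, 0.61 and 1.14 in the OGD arrays at 7 h. At 24 h it read 0.67, 1.28 and 1.32 against 0.17, 1.41 and 2.14. The groups overlapped at both times, and the log2 fold changes were 0.31 (95% CI -0.65 to 1.27) and 0.15 (95% CI -0.80 to 1.11). Its 24 h value without OGD array 1 was 0.69. The other Tgfb2 probe gave 0.03 and -0.03, and -0.22 at 24 h without that array.

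Tgfb3, the third TGF-beta isoform, read lower on every OGD array than on any control at 7 h, with 0.38, 0.24 and 0.20 in the control arrays and -0.84, 0.04 and 0.05 in the OGD arrays. All OGD arrays lay below all controls for 15.5% of all probes at 7 h and for 7.01% at 24 h. The log2 fold change was -0.52 ± 0.33 (limma adjusted p = 0.535). At 24 h, Tgfb3 read 0.76, 0.76 and 0.53 against -0.55, 0.69 and 0.40, with a log2 fold change of -0.51 (adjusted p = 0.495). At both times OGD array 1 was far below the other 2. The slides gave -1.22, -0.20 and -0.15 at 7 h, and -1.32, -0.07 and -0.14 at 24 h. Without OGD array 1 the 24 h value was -0.14.

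Of the activin genes, Fst was called higher at 7 h and Inhba lower at 24 h. Inhba encodes the beta A subunit that forms activin A, a factor released by active neurons. At 7 h it read 2.66, 2.95 and 3.30 in the control arrays and 4.07, 3.15 and 2.96 in the OGD arrays. The groups overlapped, with a log2 fold change of 0.42 ± 0.47 (limma adjusted p = 0.744). At 24 h it read 3.13, 3.03 and 2.10 in the control arrays and 2.35, 0.56 and 1.74 in the OGD arrays. OGD array 2 was the lowest, and OGD array 1 lay above control array 3. In log2 terms OGD over control was -1.21 ± 0.47 (limma adjusted p = 0.317), which is 2.31-fold lower.

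On the slides, Inhba differed by 1.41, 0.20 and -0.34 at 7 h and by -0.79, -2.47 and -0.36 at 24 h. The 24 h call was lost without OGD array 2 (-0.71), control array 1 (-1.02) or control array 2 (-1.07), and without OGD array 1 it was kept (-1.61). It was also lost with centring on the 75th percentile (-1.10), with quantile normalization (-1.08), with each time fitted alone and in the methods' t-test. The response at 24 h minus that at 7 h was -1.63 ± 0.66. This difference passed an unadjusted p of 0.05 in limma but not an adjusted one (adjusted p = 1). With the slide as a replicate block, with spike-in scaling or with normexp it passed neither. It also missed the unadjusted one without control array 1 or 2 of either time, OGD array 1 at 7 h (-1.29) or OGD array 2 at 24 h (-1.13). An unadjusted p under 0.05 for the difference between times was reached by 1086 probes (3.58%) and by 2 of the 10 genes, Inhba and Smad7, and an adjusted one by no probe (0%).

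Fst, follistatin, binds activin and keeps it from its receptors. At 7 h it read 0.61, -0.24 and 0.80 in the control arrays and 3.70, 2.16 and 2.10 in the OGD arrays. All OGD arrays were above all control arrays, by more than 1 log2 unit. The log2 fold change of 2.26 ± 0.84 (limma adjusted p = 0.342), or 4.81-fold, was the largest of the 10 genes at 7 h. The slides gave 3.09, 2.40 and 1.31. The call was lost without OGD array 1 (1.74) or control array 2 (1.95).

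At 24 h, Fst read 1.15, -0.86 and 0.29 in the control arrays and 3.44, 0.27 and 0.33 in the OGD arrays. OGD array 1 alone stood above the controls, and the other OGD arrays lay within their range. The log2 fold change was 1.15 ± 0.84 (adjusted p = 0.543), and 0.11 without OGD array 1. The responses at the 2 times differed by -1.11 ± 1.18 (adjusted p = 1) with all arrays. Without that array the difference was -2.16 and passed an unadjusted p of 0.05. With all arrays 3.58% of all probes passed it, and the share without that array is not given here.

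Tgfbr2, the type II receptor that binds the TGF-beta ligands, had point estimates above 2-fold at both times that did not pass the test. It read -1.72, -1.79 and -1.11 in the control arrays at 7 h and 0.36, -0.66 and -1.17 in the OGD arrays. OGD array 3 lay within the range of the controls and the other 2 above it. In log2 terms OGD over control was 1.05 ± 0.56 (limma adjusted p = 0.488), and the gene was called without OGD array 3 (1.39) and with each time fitted alone. At 24 h it read -1.08, -0.84 and -0.44 against 1.80, -0.10 and -0.50, with a log2 fold change of 1.19 ± 0.56 (adjusted p = 0.381), and of 0.49 without OGD array 1. The within-slide differences at 24 h were 2.89, 0.74 and -0.06. The other Tgfbr2 probe gave 0.52 ± 0.33 at 7 h (adjusted p = 0.548), and at 24 h it was called higher, at 1.05 ± 0.33 (adjusted p = 0.290), so the probes differed in whether they were called at 24 h. This probe read 0.66 and was not called without OGD array 1, and with all arrays the mean of both probes was called at 24 h (1.12).

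Smad7, which blocks activated receptors and is itself induced by TGF-beta signaling, changed by less than 2-fold. At 7 h it read 2.54, 2.12 and 2.39 in the control arrays and 2.54, 3.03 and 3.09 in the OGD arrays. OGD arrays 2 and 3 were above the controls and OGD array 1 was level with the highest. The log2 fold change was 0.54 ± 0.23 (limma adjusted p = 0.411), or 1.45-fold, with an unadjusted p under 0.05. At 24 h it read 3.05, 2.69 and 2.49 against 2.14, 2.25 and 2.64, overlapping in the other direction, with a log2 fold change of -0.40 ± 0.23 (adjusted p = 0.456), or of -0.30 without OGD array 1. The difference between the responses was -0.94 ± 0.33 (24 h minus 7 h, limma adjusted p = 1). It passed an unadjusted p of 0.05 with all arrays and when any 1 array was left out. It did not with the slide as a replicate block, with spike-in scaling or with normexp.

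The windows around the start sites of Tgfb1 and Inhba are printed, because Tgfb1 was called higher at both times and Inhba was the member called lower. They run from 250 bases before to 50 after the start site in RefSeq build GRCr8, which had such windows for 7 of the 10 genes. Capitals mark a match to a motif that was searched, on either strand, and Tgfb1 has none.

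Tgfb1, chr1:90324062-90324361, plus strand: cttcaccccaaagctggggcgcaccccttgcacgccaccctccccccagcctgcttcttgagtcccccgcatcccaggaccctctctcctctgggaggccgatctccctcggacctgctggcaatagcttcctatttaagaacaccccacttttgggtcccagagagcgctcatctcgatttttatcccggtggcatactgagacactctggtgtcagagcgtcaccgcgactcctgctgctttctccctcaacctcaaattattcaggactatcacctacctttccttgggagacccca
Inhba, chr17:53804459-53804758, minus strand: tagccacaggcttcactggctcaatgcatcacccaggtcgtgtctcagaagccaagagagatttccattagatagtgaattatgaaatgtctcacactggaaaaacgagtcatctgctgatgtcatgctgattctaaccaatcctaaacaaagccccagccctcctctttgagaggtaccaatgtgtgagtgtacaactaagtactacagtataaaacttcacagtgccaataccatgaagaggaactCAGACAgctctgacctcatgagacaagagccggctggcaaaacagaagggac

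The motifs searched were the SMAD motifs GTCTAGAC and CAGACA, the BMP-SMAD motif GGCGCC, the cAMP response element TGACGTCA and the AP-1 motifs TGAGTCA and TGACTCA, none of which overlap in these windows. The match in Inhba is CAGACA, a motif present in 21.1% of the 33469 windows of this length. Bmp4 holds the reverse complement of CAGACA once, and Smad7 holds GGCGCC at 2 positions, a motif found in 3688 of the windows. The windows of Tgfb1, Tgfb2, Tgfb3 and Tgfbr2 held none of these letters. GTCTAGAC was found in 0.197% of all windows, TGACGTCA in 1.83% and the AP-1 motifs in 4.63%, and in none of the 7.

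**Figure D3:**
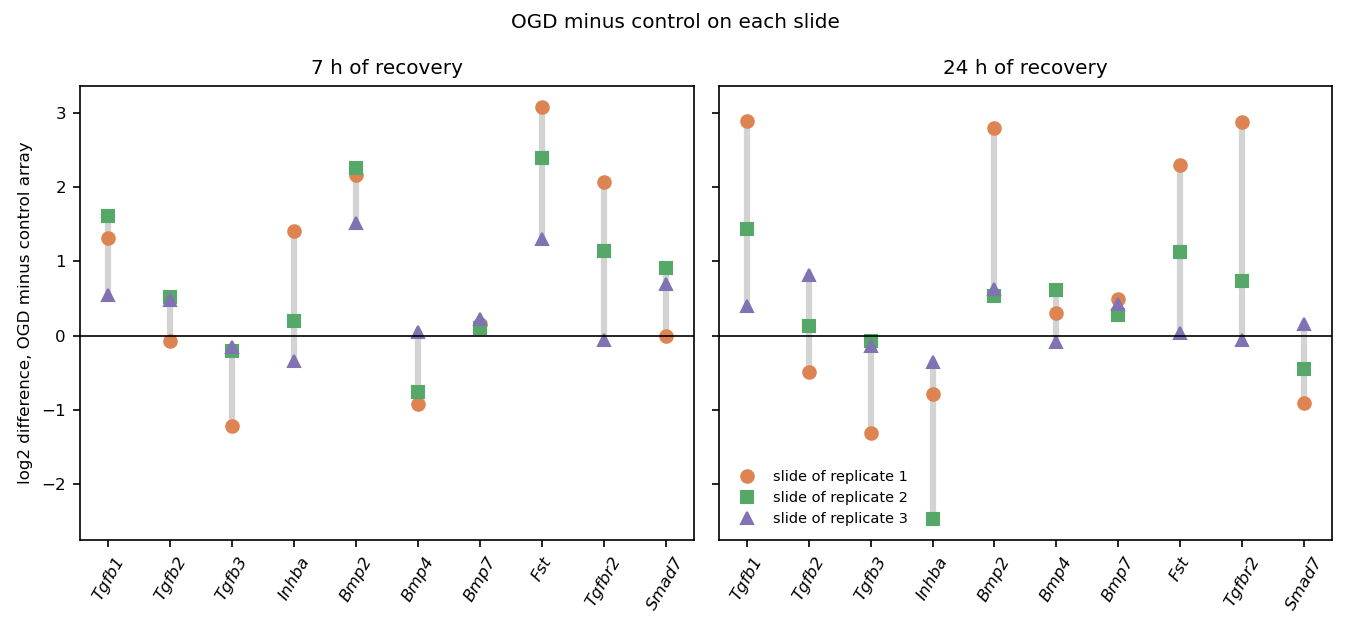
OGD minus control difference in log2 signal on each slide at 7 h (left) and 24 h (right), with a marker shape and color for each replicate number and a grey bar from the lowest to the highest slide. At 24 h the slide of replicate 1 gave the difference of largest size for 7 of the 10 genes.

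The largest of the 3 within-slide differences, regardless of sign, was on the slide of replicate 1 for 5 of the 10 genes at 7 h and for 7 of 10 at 24 h. Over all probes this slide held the largest difference for 52.4% at 7 h and for 66.6% at 24 h. After 7 h, 4 genes were higher on all 3 slides (Tgfb1, Bmp2, Bmp7 and Fst), as were 23.7% of all probes, and 1 was lower on all 3 (Tgfb3), as were 23.6%. At 24 h the same 4 genes were higher on all 3 slides, a share of 20.9% of all probes, and Tgfb3 and Inhba were lower on all 3, a share of 12.1%.

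The other genes of the pathway were taken from 5 lists by role. The 20 known target genes all had a probe, and 3 were called higher at 7 h and 7 at 24 h, with none called lower. Their median log2 fold change was 0.37 at 7 h and 0.64 at 24 h, against -0.06 and 0.01 over all probes. Of all probes, 2.08% and 3.71% were called higher at these times and 1.66% and 1.96% lower. Without OGD array 1 the count of target genes at 24 h was 3. With spike-in scaling their counts were 0 and 2, and with normexp 2 and 3. The numbers of probes called under these settings are given below, for fits without 1 array as a range. Ctgf, a matricellular protein induced by TGF-beta and by mechanical signals, was called higher at 7 h at 2.14 ± 0.77 (limma adjusted p = 0.333) and at 24 h at 3.29 ± 0.77 (adjusted p = 0.252). The 7 h call of Ctgf was lost without control array 1 (1.46), control array 2 (1.86) or OGD array 3 (2.0) and in the methods' t-test. Its 24 h call held without any 1 array. The study listed Ctgf from these same arrays at 24 h, so that call is not independent evidence.

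Junb, an AP-1 subunit that many stimuli induce, was called at 7 h alone, at 1.15 ± 0.26 (adjusted p = 0.226), and read -0.23 at 24 h (adjusted p = 0.711). The difference between the times was -1.38 ± 0.37 (limma adjusted p = 1, unadjusted p under 0.05). At 24 h the matrix gene Fn1 reached 1.47 ± 0.43 (adjusted p = 0.269), the cell cycle inhibitor Cdkn2b 1.21 ± 0.27 (adjusted p = 0.252) and the transcription factor Snai1 1.14 ± 0.31 (adjusted p = 0.265). Without OGD array 1 they read 1.35, 0.85 and 0.79, so that Cdkn2b and Snai1 no longer reached 2-fold. With normexp Junb (0.55), Cdkn2b (0.75) and Snai1 (0.70) were not called, nor was Snai1 in the methods' t-test. The second probes of Fn1 and Cdkn2b gave 1.32 and 1.08 at 24 h. Id1 and Atoh8, both BMP targets, were also among the 7 called at 24 h. Several of these genes also respond to stimuli other than this pathway, and the counts do not separate them.

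The list of other ligands held 26 genes, 22 of them with a probe, and gave 0 called higher and 2 lower at 7 h and 1 of each at 24 h. Bmp3, which antagonizes other BMPs, read -1.02 ± 0.32 on the log2 scale at 7 h (adjusted p = 0.282) and was called lower, and fell short of 2-fold without control array 1 (-0.70), control array 2 (-0.97) or OGD array 2 (-0.99). The Bmp3 call was also lost with the authors' values (-0.99), centring on the 75th percentile (-0.91), normexp (-0.53) and the methods' t-test. Mstn, myostatin, was not well above background on any OGD array at 7 h. The bound on its mean there was at least 1.64-fold lower, and this bound has no test of its own. Its fitted change was called lower (limma adjusted p = 0.271). That change fell short of 2-fold without OGD array 1 (-0.79) or control array 1 (-0.997), with centring on the 75th percentile (-0.92) and with quantile normalization (-0.93). It turned in sign with normexp (0.54). Gdf10, a TGF-beta family ligand of brain, was lower at 24 h at -1.32 ± 0.50 (adjusted p = 0.313), and was not called without OGD array 1 (-0.76) or control array 1 (-0.99), with normexp (-0.43) or in the methods' t-test. Gdf2 was called higher at 24 h but was well above background on 1 of the 12 arrays, so no fold is given, and the call was lost without OGD array 2 and several others.

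Of 28 antagonists and genes of latency and processing, 27 had a probe, and a single gene was called lower at 7 h. At 24 h, 1 was called higher and 1 lower. Grem1, a secreted antagonist of BMP2 and BMP4, was the gene called lower at 24 h. It read -1.49 ± 0.67 at 24 h (adjusted p = 0.365), and its other probe -0.95. Its call was lost when any of 9 of the 12 arrays was left out, among them OGD array 1 of its own time (-0.81), and with normexp (-0.51), quantile normalization, each time fitted alone and the methods' t-test. With the slide as a replicate block neither Grem1 nor Gdf10 was called, and with the slide as a random block both were. Bgn, a proteoglycan that binds TGF-beta, was higher at 24 h at 1.14 ± 0.37 (adjusted p = 0.290), fell short of 2-fold without OGD array 1 (0.83) or control array 1 (0.90), and read 0.55 with its other probe. It was called neither with normexp (0.69), nor with the mean of both probes (0.85), nor in the methods' t-test.

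Of 16 other receptors with a probe, of 18 listed, none was called at either time by limma, and their median log2 fold change was 0.00 at 7 h and 0.12 at 24 h. With no minimum fold, an unadjusted p of 0.05 was passed by 2 lower receptors at the early time and by 1 at the late time, and by none that was higher. Of all probes, 7.03% and 6.19% were lower by this measure at these times, and 4.79% and 7.51% higher. Of the 2 receptors at the early time, Amhr2 was not well above background on any array. Of 15 other SMADs and intracellular regulators with a probe, of 19 listed, 1 was called, the SMAD corepressor Tgif1. It was called higher at 7 h, as were 2.08% of all probes, and at 24 h, as were 3.71%. Its log2 fold change was 1.05 ± 0.40 at 7 h (adjusted p = 0.353) and 1.45 ± 0.40 at 24 h (adjusted p = 0.267). The 7 h call was lost without control array 2 (0.84), OGD array 1 (0.90) or OGD array 3 (0.95) and with normexp (0.50), whereas the 24 h call held without any 1 array. Of the pathway genes given here with values, spike-in scaling left only Ctgf, Gdf10 and Grem1 called, all at 24 h.

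**Figure D4:**
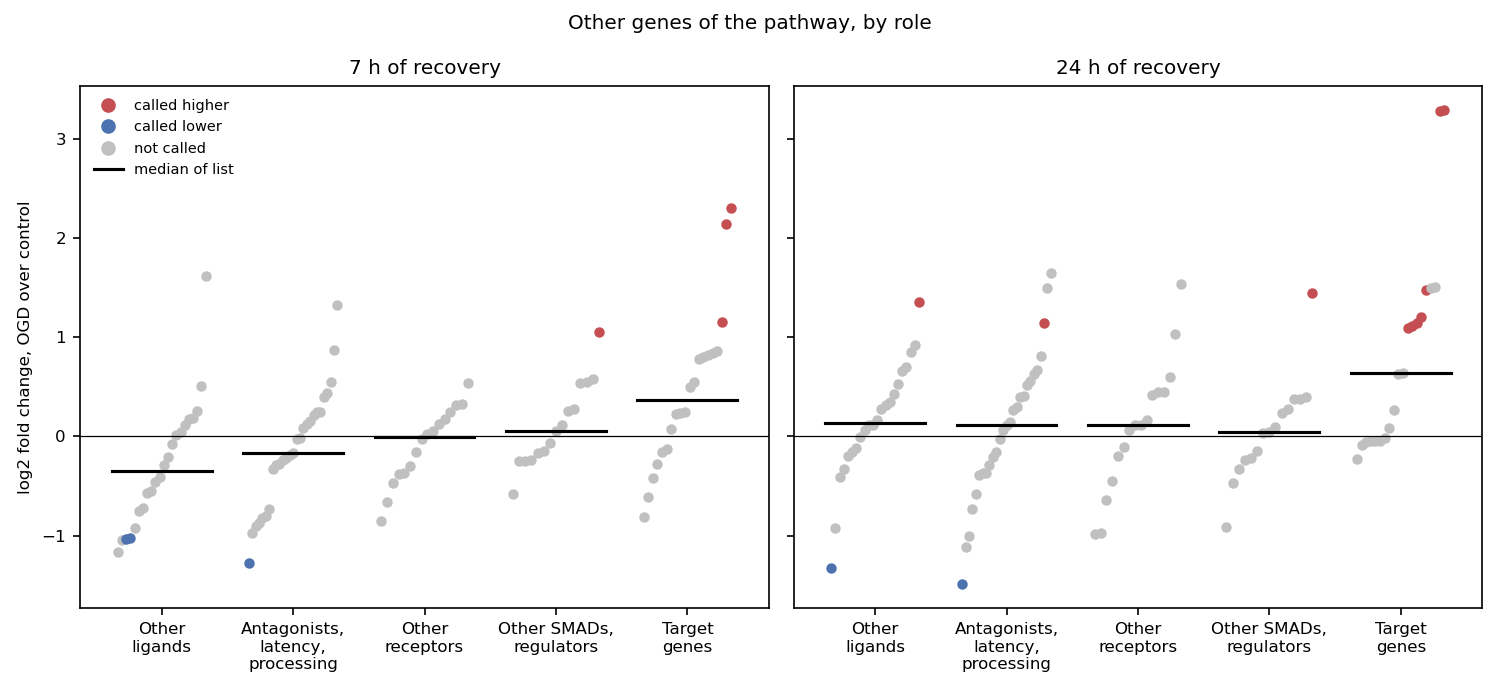
Log2 fold change of OGD over control for the other genes of the pathway with a probe, by role, at 7 h (left) and 24 h (right). Each point is a gene, ordered by value within its list, red when called higher and blue when called lower, and the black line is the median of the list, which is 0.37 at 7 h and 0.64 at 24 h for the target genes.

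Across the 12 arrays, the genes whose signal followed Bmp2 most closely, among 10905 genes well above background on all arrays, were the neutral amino acid transporter Slc1a5 (r = 0.979) and the early response genes Ier3 (r = 0.963) and Ier5l (r = 0.962). Those closest to Tgfb1 were the membrane protein Pear1 (r = 0.959), the galectin Lgals1 (r = 0.957) and the surface glycoprotein Cd99 (r = 0.950). These Pearson correlations over 12 arrays include the difference between control and OGD arrays and are given as descriptions. Tgfb1 itself was well above background on 1 of 3 control arrays at 7 h and on 2 of 3 at 24 h. Its correlations therefore rest partly on values near background. Bmp2 and Tgfb1 were taken because they had the lowest p of the called members at 7 h and at 24 h.

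Markers of the cell types in these cultures were read on the same arrays. The shares of all probes called were 2.08% higher and 1.66% lower at 7 h, and 3.71% and 1.96% at 24 h. Of 12 neuronal markers, 2 were called lower at 7 h and 5 at 24 h, with a median log2 fold change of -0.58 and -0.96. Their summed level, in multiples of the array median, was 655.8 to 852.9 in control and 598.7 to 819.7 in OGD arrays at 7 h, and 717.3 to 1023 against 330.6 to 718.1 at 24 h. With OGD array 1 left out, an alternative added after the data were seen, 2 neuronal markers were called lower at 24 h, the median was -0.46 and the OGD sums were 668.9 and 718.1. No astrocyte marker of 9 was called, and their sum was 929.3 to 1059 in control and 1154 to 1471 in OGD arrays at 7 h, and 980.3 to 1169 against 920.7 to 1226 at 24 h, or 1211 and 1226 without OGD array 1.

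Of 10 microglial markers, 1 was called higher at 7 h (Cx3cr1) and none at 24 h. Their sum was 15.5 to 16.3 in control and 15.8 to 28.7 in OGD arrays at 7 h, and 20.7 to 25.3 against 25.0 to 35.1 at 24 h. Ptprc, the leukocyte marker CD45, was not well above background on any array. Among 10 vascular and fibroblast markers, Rgs5 was called lower at 7 h and Pdgfrb higher at 24 h, with sums of 15.3 to 25.4 against 11.8 to 27.4 at 7 h and 13.2 to 31.9 against 21.6 to 67.2 at 24 h. The endothelial marker Tek was not well above background on any array. Of 10 oligodendrocyte markers, Cspg4 was called lower at 7 h and none at 24 h, with sums of 219.2 to 229.4 against 115.0 to 256.4 at 7 h and 259.9 to 357.9 against 297.6 to 488.7 at 24 h. The markers of these 3 lists called at 24 h were the same with OGD array 1 left out, and the lowest sums of the OGD arrays were 25.0, 32.0 and 391.3 for microglia, vascular cells and oligodendrocytes. A sum is set mostly by the brightest markers of its list. At 7 h the median log2 fold change was 0.33 for microglia, -0.04 for vascular cells and fibroblasts and -0.15 for oligodendrocytes. At 24 h these medians were 0.26, 0.06 and 0.07. The part of these marker levels in the changes of the pathway genes was not tested.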

How the data were processed

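Total RNA of control and OGD hippocampal cultures was hybridized by the authors to Agilent rat arrays (Cy3), and the deposited intensity of each spot was made by Feature Extraction 10.5.1.1, per the file headers (protocol GE1_105_Dec08), which subtracts the background and corrects spatial trends. The deposited log2 values hold the same intensities after the authors' median centring, and differ from those used here by a constant per array. Here, flagged spots (non-uniform features and population outliers) were dropped, replicate spots were averaged on the log2 scale, and each array was centred on the median over its non-control probes. This left 30367 probes, 18004 of them named through RefSeq accessions, without a filter on signal. The 4 groups were fitted together in limma 3.58.1 (R 4.3.3), with two-sided moderated tests and Benjamini-Hochberg adjustment over all probes, and the procedure was tested on simulated data. Missing spots left 70 empty values in all, none in the 10 genes. The methods' t-test was run as an alternative, beside other centrings, spike-in scaling and normexp with an offset of 50. Further alternatives were a filter on dim probes, the authors' values, slide blocks and leaving out each array. Normexp was run on median spot signals in place of the planned mean signals, which were not available. A group not well above background on any array has only a bound, set against the lowest signal well above background on each array. The precision is limited by the 3 arrays per group. Named were all 10 members, the pathway genes called at either time (at most 6 per list, by size of change) and the 3 genes most correlated with the called member of lowest p at each time. Of these, 2 pathway genes are not reported here. Other genes named by symbol alone complete a count or mark a cell type. The members, lists and tests were chosen with earlier results of these data known.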

Additional observations from a re-analysis of the deposited data

Results flagged for a closer look

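The responses of 3 genes differed between the 2 recovery times by an unadjusted p under 0.05 in the test of that difference. The log2 change of Inhba at 24 h minus that at 7 h was -1.63 (limma adjusted p = 1), from 0.42 at 7 h and -1.21 at 24 h. For Smad7 it was -0.94 (adjusted p = 1), from 0.54 and -0.40. For Junb it was -1.38 (adjusted p = 1), from 1.15 and -0.23. None of the 30367 probes passed an adjusted p of 0.05 for this difference in limma, and 1086 had an unadjusted p under 0.05. The times also differ in the day of the scan, which cannot be told apart from them.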

How the results depend on the processing

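Scaling to the only usable spike-in probe (32 spots) moved the median of all probes by -0.81 at 7 h, -1.02 at 24 h and -0.22 for the difference between times, and the values under it are to be read against those shifts. Under it no member was called higher at either time (0 and 0), the target genes called higher were 0 and 2, the probes called higher 74 and 20, those lower at 7 h 284, and the members and probes with a p under 0.05 for the difference between times 0 and 27. Signs turned for Tgfb2 (-0.50), Inhba (-0.39), Bmp7 (-0.64) and Smad7 (-0.27) at 7 h, for Tgfb2 (-0.87), Bmp4 (-0.75) and Bmp7 (-0.62) at 24 h, and for the difference between times of Tgfb3 (-0.20) and Tgfbr2 (-0.0774). Centring on the 75th percentile moved that median by 0.11 at each time, and normexp by 0.13, 0.07 and -0.14. With normexp, members called higher at 24 h were 0, target genes 3, probes called higher 2047 and 190, lower at 7 h 871, and the difference between times gave 0 members and 64 probes. Signs turned for Inhba (-0.0651), Bmp7 (-0.32) and Mstn (0.54) at 7 h and for the differences of Tgfb1 (-0.23), Tgfb2 (0.0553) and Tgfbr2 (-0.20). Tgfb3's difference was -0.0041 with the authors' values. The methods' t-test called 1 member higher and 0 lower at 24 h, 380 probes higher at 7 h, and 539 up against 95 down after 24 h. Members called lower at 24 h were 0 with centring on the 75th percentile, quantile normalization or each time fitted alone, and the last gave 329 probes lower. Centring on the 75th percentile and quantile normalization left 1 member with a p under 0.05 for the difference.

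Deviations of slide mates correlated by -0.05 to 0.169 (median 0.037), and those of other pairs by -0.178 to 0.112 (median -0.041). The random slide block had a correlation of 0.0176. No clear pairing by replicate number was seen, but 3 arrays per group are too few to exclude it. The labels do not say whether a number marks a shared preparation. With the slide as a replicate block the members called were the same in number (3 at the early and 3 at the late time), the target genes called at 24 h were 9, and 0 members had a p under 0.05 for the difference between times.

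Leaving out each array in turn gave 1 to 4 members called higher at 7 h, 1 to 3 called higher at 24 h, 0 to 1 called lower there, 1 to 4 with a p under 0.05 for the difference, 2 to 4 target genes at 7 h and 3 to 9 at 24 h. The probes called were 357 to 1068 (higher) and 307 to 682 (lower) for the early time, 630 to 1601 (higher) and 184 to 1444 (lower) for the late time, and 767 to 2907 for the difference. Signs turned within the ranges for Tgfb2 at 24 h (-0.30 to 0.69) and for the differences between times of Tgfb2 (-0.61 to 0.38), Tgfb3 (-0.28 to 0.38) and Tgfbr2 (-0.56 to 0.59). Of the changes of single named genes, those at 7 h kept their direction and their side of the thresholds in 181 fits without 1 array and in 156 under other settings, those at 24 h in 207 and 182, and the differences between times in 100 and 76. The thresholds were lost in 21 and 23, in 28 and 33, and in 6 and 8. The causes of these changes were not tested.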
